A study of Mus musculus with 55 samples.

Results

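The optic nerve head (ONH) of the uninjured right eye was examined 1 day and 3 days after the optic nerve of the left eye had been crushed, and was compared with the ONH of naïve mice. The comparison takes 15 of the 55 samples of the series, chosen by their titles: 5 contralateral samples at 1 day, 5 contralateral samples at 3 days (10 early contralateral samples together) and 5 naïve samples. All mice were C57BL/6 females, and those with a crush were 6 to 8 weeks old when it was made. For the naïve mice, which had no surgery, 6 to 8 weeks was taken as well, and their age at collection is not given apart. Every sample was a pool of 2 ONHs, which came from different mice in the contralateral samples. Whether this also held for the naïve pools is not given in the sources used here. The contralateral mice had received ketamine and xylazine and a 10 second crush of the left nerve 1 mm behind the globe, whereas the naïve mice had no crush, so that anesthesia, surgery and the presence of an injured partner eye cannot be told apart in this comparison. The right eyes shared their mice with the crushed samples, and no naïve mouse gave a contralateral sample. The hour at which tissue was collected is not given in the sources used here.

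The ONH is the place where the axons of the retinal ganglion cells leave the eye, and its unmyelinated part is built largely of astrocytes, followed by the zone where oligodendrocytes begin to myelinate the axons. Genes of several kinds could differ in the uninjured partner eye. The circadian clock is a loop in which ARNTL (BMAL1) and CLOCK drive the genes of their own repressors, among them the PER, CRY, BHLHE40 and BHLHE41 proteins and NR1D1, and also the output factors DBP and TEF, so that Arntl and the genes it drives peak at opposite hours. Type I interferon induces a broad set of antiviral genes, and serum amyloid A proteins are acute phase products of inflamed tissue.

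The median intensity of these 15 arrays lay between 459 and 510 linear units, and 17562 to 18058 of 22626 probe sets reached 50. The mean correlation of a sample with the others of its group was 0.978 to 0.987 for naïve, 0.990 to 0.993 for 1 day and 0.983 to 0.991 for 3 days. The tissue held its defining markers, with Gfap (the astrocyte filament) at 8331 to 10414 in naïve and 9386 to 11133 with a median of 10440.3 in early contralateral samples. Mbp (a myelin protein) was at 10823 to 14473 and 12479 to 14839 with a median of 13827. Transcripts of photoreceptors, cells of the neighbouring retina, varied within every group: the mean log2 intensity of 13 of them was 11.96, 10.12, 5.93, 6.86 and 5.87 in the naïve samples. In the contralateral samples it was 8.33, 7.09, 5.80, 6.56 and 5.41 at 1 day and 5.41, 7.67, 11.71, 6.49 and 7.26 at 3 days. Fewer cells of a type and less RNA per cell cannot be told apart in such bulk samples.

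Gene expression of early contralateral ONHs lay close to that of naïve ONHs. Of 18669 probe sets tested, 0 (0%) passed an adjusted p of 0.05 for both times combined (limma with Benjamini-Hochberg adjustment). Without adjustment, a p under 0.05 was reached by 951 higher and 353 lower probe sets. At 1 day 3 probe sets passed (0.0161%), those of Bhlhe40, Tef and Rasl11b, and all 3 were higher in the contralateral samples by less than 2-fold. At 3 days 0 passed (0%), while 701 higher and 335 lower ones had a p under 0.05 before adjustment. The difference between 3 days and 1 day was also tested, and 0 probe sets passed (0%), while 386 higher and 450 lower ones had a p under 0.05 before adjustment. The size of the leaning of the unadjusted counts toward higher values depended on the scaling, but its direction did not. For both times together, quantile normalization gave 699 higher and 420 lower, and a shift to a common median gave 855 higher and 362 lower. The p-values measure the spread between pools of 2 ONHs. Differences are given on the log2 scale with their SE, means of intensity with their SD over 5 samples, and the moderated t is the difference over its SE with the variance shrunk across probe sets.

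The genes that rose at 1 day were led by regulators and outputs of the circadian clock. Bhlhe40, which encodes a repressor of the clock loop, had intensities of 4034, 4577, 4223, 4624 and 3869.9 in the naïve samples. Contralateral Bhlhe40 was at 5917, 6079.6, 5532, 5833 and 6073 at 1 day and 4633, 4349, 4850.4, 5240.4 and 5207 at 3 days. All 5 samples at 1 day lay above all naïve samples, while those at 3 days overlapped with them. The log2 difference from naïve at 1 day was 0.47 ± 0.06 (SE), or 1.38-fold, with an adjusted p of 0.003, and at 3 days it was 0.19 ± 0.06 (unadjusted p = 0.0078, adjusted p = 0.75). Tef, a clock output factor of the PAR bZIP family, was at 3805, 3772, 4222, 3999 and 3542 in naïve ONHs. Contralateral Tef was at 5326, 4952, 4678, 4742 and 5325 at 1 day and 3955, 4122, 4315, 4487 and 3876 at 3 days. Again the 1 day samples were all above the naïve ones, by 0.37 ± 0.06 on the log2 scale (1.29-fold, adjusted p = 0.015), and the 3 days samples were not (0.10 ± 0.06). A second Tef probe set, of 1122 units in the naïve samples, and another of 69.7 did not show this difference, with 1271 and 65.5 at 1 day. Bhlhe40 passed the threshold under all 20 other settings tried, Tef under 11. Tef lost its adjusted p under 0.05 when naïve sample 1, 2 or 5 or 1 day sample 1, 2 or 5 was left out, with a highest adjusted p of 0.108.

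Both promoters that RefSeq (GRCm38.p6) lists for Tef contain the letters CACGTG, the E-box to which ARNTL and CLOCK are known to bind, within the 250 bases before the start. They are shown with that of Bhlhe41, a relative of Bhlhe40, and with the promoter of Per3, which contains TTATGTAA, the D-box bound by DBP and TEF, at 2 places. The sequences are written 5′ to 3′ on the strand of the gene, with the motif in capitals.
Tef, first start, chr15:81802516-81802581, plus strand: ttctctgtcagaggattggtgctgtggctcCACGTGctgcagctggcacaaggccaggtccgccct
Tef, second start, chr15:81811246-81811311, plus strand: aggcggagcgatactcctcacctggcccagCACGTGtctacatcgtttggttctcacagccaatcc
Bhlhe41, chr6:145865538-145865603, minus strand: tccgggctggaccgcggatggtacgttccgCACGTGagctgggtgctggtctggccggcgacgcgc
Per3, chr4:151044786-151044900, minus strand: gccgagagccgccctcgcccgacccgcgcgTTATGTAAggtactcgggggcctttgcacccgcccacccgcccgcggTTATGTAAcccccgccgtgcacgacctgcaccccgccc

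The shares and counts of motifs were taken over promoters from 250 bases before to 50 bases after the start. Among 32851 such promoters, 7.15% held CACGTG, which reads the same on both strands, and 0.938% held TTATGTAA on either strand. Of the 9 clock genes that were higher at 1 day at an unadjusted p under 0.05, 7 had a promoter entry. Of these 7, 2 held CACGTG (Tef and the dim Bhlhe41), as did 2 of 9 among the other clock genes (Per1 and Cry1). TTATGTAA was held by 1 of these 7 (Per3) and by 0 of the 9 other clock genes. A gene was counted if any of its listed promoters held the letters, whereas the shares count single promoters, so both are not the same measure. Bhlhe40 and Per2 had no entry.

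Further clock genes differed at 1 day without passing the adjustment. Dbp, the founding member of the PAR bZIP factors, was at 3131, 3729, 3510.3, 4656 and 2713 in the naïve samples. Contralateral Dbp was at 5567, 5547, 5013, 4954 and 5580.3 at 1 day and 2978, 3124, 4147, 4575 and 3769 at 3 days. The 1 day samples spanned a narrow range above every naïve value, and the 3 days samples spread over the naïve range. The log2 difference was 0.61 ± 0.13 at 1 day (adjusted p = 0.17) and 0.07 ± 0.13 at 3 days, and a second Dbp probe set had means of 1907, 3073 and 1934. Arntl, the activator of the loop, went the other way, with 2544, 1954, 1636, 1687 and 1311 in naïve. Contralateral Arntl was at 819, 851, 846, 802 and 686 at 1 day and 1221, 1621, 1667, 1061 and 1335 at 3 days. Every 1 day sample was below every naïve sample, at 2.23-fold lower on average (-1.16 ± 0.26 on the log2 scale, adjusted p = 0.2), and the 3 days samples lay above those of 1 day and overlapped with the naïve samples (-0.39 ± 0.26). Per2, a repressor of the loop, was at 314, 407, 680.1, 546 and 502 in naïve. Contralateral Per2 was at 725, 716, 635, 830.1 and 1105 at 1 day and 635, 557, 670.2, 903 and 818 at 3 days. Its groups overlapped, with differences of 0.73 ± 0.18 at 1 day (adjusted p = 0.3) and 0.58 ± 0.18 at 3 days (adjusted p = 0.67), and a second, dim Per2 probe set of 36.9 units showed 38.7 and 46.4. Nr1d1, the repressor of Arntl, was at 3236 ± 762 (SD, n = 5) in naïve samples, 4405 ± 297 at 1 day and 2655 ± 665 at 3 days.

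**Figure D1:**
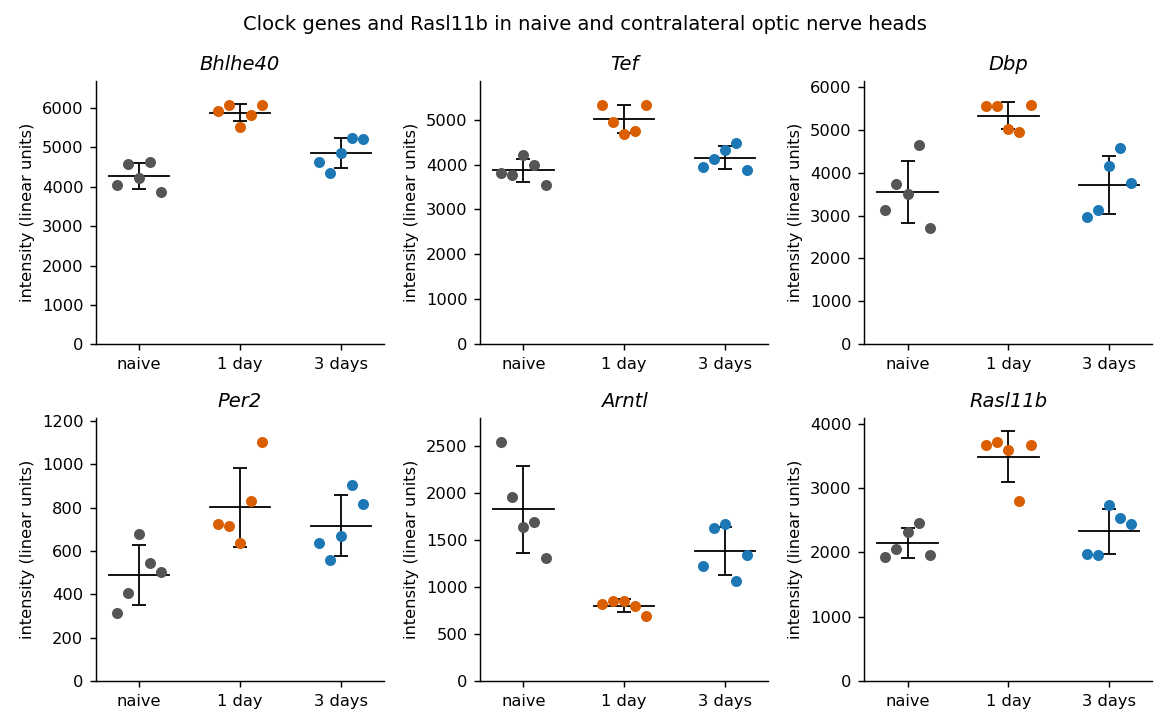
Intensity of Bhlhe40, Tef, Dbp, Per2, Arntl and Rasl11b in each sample (points) of the naïve, 1 day contralateral and 3 days contralateral groups, with the mean and SD of 5 samples in black and linear axes from 0. For all but Per2 the 1 day samples lie wholly outside the naïve range, below it for Arntl and above it for the others.

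Of 18 clock and output genes tested, 9 were higher and 1 lower at 1 day at an unadjusted p under 0.05, where the shares among all 10440 genes tested were 5.5% higher and 1.93% lower. The 9 were Per2, Per3, Nr1d1, Nr1d2, Dbp, Tef, Bhlhe40, Bhlhe41 and Usp2, named here after their values were seen, and the 1 was Arntl. Bhlhe41 was dim, with a mean under 50 over the naïve, 1 day and 3 days samples, so it adds little to the count. The median log2 difference of the list at 1 day was 0.22, beside 0.04 for all genes. Of the same 18 genes, 3 (Bhlhe40, Tef and Dbp) had all 1 day samples above all naïve samples and 1 (Arntl) had all below, against 1.68% and 0.393% of all genes. At 3 days 4 were higher and 1 lower, beside 4.16% and 1.57% of all genes. Between 3 days and 1 day, 2 of the 18 were higher and 6 lower at 3 days at an unadjusted p under 0.05, beside 2.31% and 2.48% of all genes. The 2 were Arntl (0.77 ± 0.26, adjusted p = 0.79) and Nfil3 (0.47 ± 0.18), a repressor of D-box genes, and the 6 included Dbp (-0.54 ± 0.13), Nr1d1 (-0.77 ± 0.17), Tef (-0.27 ± 0.06) and Bhlhe40 (-0.28 ± 0.06). The number of higher members at 1 day was 7 to 11 under the alternatives tried.

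Levels of Dbp and Arntl in the other samples of the series are given for comparison. In contralateral ONHs of 1 week, Dbp was at 5919 ± 870.2 and Arntl at 715 ± 513 (SD, n = 5), beside 5332 ± 319 and 801 ± 67.5 at 1 day, and at 3 weeks they were at 4032 ± 549.6 and 1196 ± 259. The crushed ONHs at 1 day had Bhlhe40 at 6276 ± 389, Dbp at 3063 ± 743, Tef at 3154 ± 333 and Arntl at 1171 ± 364. Among them the mean of Bhlhe40 was above that of the contralateral samples, whereas those of Dbp and Tef were below the naïve means of 3548 ± 730.3 and 3868 ± 256.

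Outside the clock, Rasl11b was the gene that rose at 1 day. It encodes a small GTPase of the Ras-like family, and its intensities were 1930.3, 2054, 2325, 2466 and 1964 in naïve. Contralateral Rasl11b was at 3678, 3726, 3594, 2798 and 3674 at 1 day and 1981, 1958, 2736, 2536 and 2441 at 3 days. The lowest 1 day sample was still above the highest naïve sample, and the difference was 0.70 ± 0.12 (1.63-fold, adjusted p = 0.036) at 1 day and 0.11 ± 0.12 at 3 days. It kept an adjusted p under 0.05 in 6 of 20 other settings, and among those that leave out 1 sample only without naïve sample 4 or without 1 day sample 4. Plin4, which encodes a perilipin of lipid droplets, was dim in naïve ONHs, at 48.6, 78.2, 61.6, 101 and 34.6, and was at 169, 176, 244, 196 and 222 at 1 day and 111, 91.4, 78.8, 105 and 98.1 at 3 days. The 1 day values were all above the naïve ones, 3.29-fold on average (1.72 ± 0.36 on the log2 scale, adjusted p = 0.16), and Plin4 met the 3 criteria of the study at 1 day, the single probe set of that time to do so. Sphk2, a sphingosine kinase, was at 2677, 3380, 3045, 3502 and 2458 in naïve and 4714, 4697, 4149.5, 4241 and 4812 at 1 day, without overlap (0.60 ± 0.12, adjusted p = 0.11), but a dimmer probe set of the gene had means of 393 and 307. Lingo1, a component of the Nogo receptor complex, was at 259, 221, 175, 442 and 165 in naïve and 421, 543, 445, 413 and 484 at 1 day, with overlap through naïve sample 4 (0.96 ± 0.22, adjusted p = 0.25). Without naïve sample 4, Dbp, Sphk2 and Lingo1 passed as well, with adjusted p of 0.0308, 0.0449 and 0.0196, and 8 probe sets passed at 1 day in all. At 3 days Sphk2, at 2607 to 3549, and Lingo1, at 229 to 379, lay over the naïve range.

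Some genes of the cell cycle had lower values at 1 day, and none passed the adjustment. Ccna2, which encodes cyclin A2 and is used in S phase and at the entry into mitosis, was at 182, 208, 194, 237 and 229.9 in naïve. Contralateral Ccna2 was at 90.2, 127, 143, 64 and 112 at 1 day and 149.6, 207, 258, 209 and 291 at 3 days. All 1 day samples lay below all naïve samples and the 3 days samples spanned the naïve range, with -1.02 ± 0.22 at 1 day (adjusted p = 0.18) and 1.07 ± 0.22 between 3 days and 1 day (adjusted p = 0.15). A second, dimmer Ccna2 probe set had means of 122.7 in naïve, 90.9 at 1 day and 121.7 at 3 days. Its difference at 1 day was smaller, at -0.42 ± 0.13 (adjusted p = 0.58). Of 21 measured replication and mitosis genes tested, 0 were higher and 6 lower at 1 day at an unadjusted p under 0.05 (Ccna2, Bub1b, Mki67, Birc5, Top2a and Cdk1), with a median of -0.11. The shares of all genes at 1 day were 5.5% higher and 1.93% lower, and 5 of the 24 measured members had means under 50 in all 3 groups (Tyms, Aurka, Aurkb, Bub1 and Plk1). The count of lower members was 3 without naïve sample 2 or 4 and 2 without 1 day sample 4. At 3 days none of the 21 was higher or lower by that test. Between 3 days and 1 day 10 were higher and 0 lower, with a median of 0.38 against -0.01 for all genes, of which 2.31% were higher and 2.48% lower. The count was 6 to 11 and the median 0.13 to 0.44 under the alternatives, with 6 when at least 5 arrays had to reach 200. Top2a, the topoisomerase of chromosome segregation, was at 430 ± 121 in naïve, 298 ± 84.3 at 1 day and 528 ± 122 at 3 days. Mki67, a nuclear protein of dividing cells, was at 54.5 ± 12.5, 36.7 ± 13.5 and 64.7 ± 14. Of the replication licensing factors, Mcm5 was among the 10 (0.48 ± 0.21), and Mcm2, Mcm3, Mcm4, Mcm6 and Mcm7 did not pass in any of these comparisons. The mean log2 intensity of all 24 measured members was 7.47, 7.66, 7.46, 7.65 and 7.41 in the naïve samples, 7.23, 7.32, 7.32, 7.08 and 7.31 at 1 day and 7.43, 7.78, 7.64, 7.73 and 7.77 at 3 days, so that every 1 day sample was below every naïve and every 3 days sample. The count of 6 lower members at 1 day was 2 without 1 day sample 4 and 3 without naïve sample 2 or naïve sample 4. In the crushed ONHs Ccna2 was at 573 ± 299.5 at 1 day and 4166 ± 407 at 3 days.

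**Figure D2:**
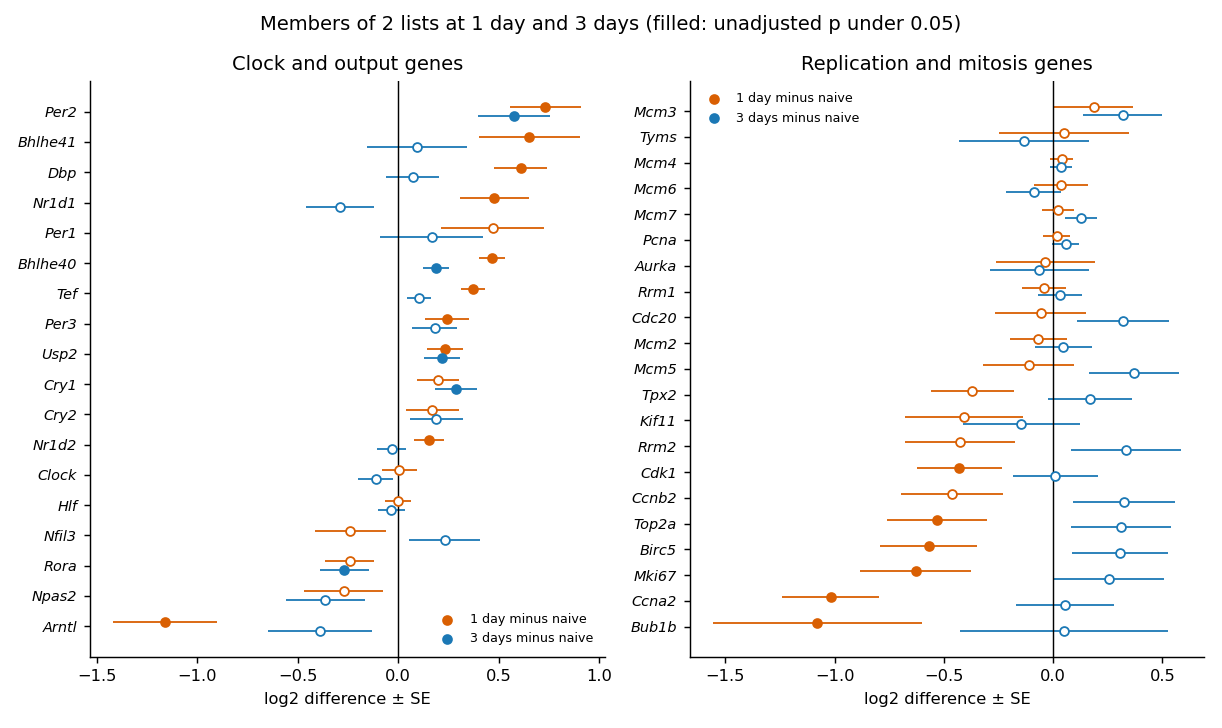
Log2 difference from naïve (with its SE) of each tested member of the clock list (left) and of the replication and mitosis list (right) at 1 day (orange) and at 3 days (blue), with filled points for an unadjusted p under 0.05. At 1 day 9 filled clock points lie to the right and that of Arntl to the left of 0, and the 6 filled mitosis points lie to the left.

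The other genes with the lowest t at 1 day encode secreted and matrix proteins. Ecrg4, the precursor of a secreted peptide, was at 1212, 1444, 2137, 1432 and 1056 in naïve. Contralateral Ecrg4 was at 973, 267, 371, 737 and 905 at 1 day and 501, 933, 641, 566 and 1012 at 3 days, with each contralateral sample below each naïve sample (-1.29 ± 0.37 at 1 day and -1.01 ± 0.37 at 3 days, adjusted p = 0.49 and 0.75). Spon2, a spondin of the extracellular matrix, was at 211, 399.8, 376, 155 and 163 in naïve. Contralateral Spon2 was at 197, 51.5, 121, 126 and 46.3 at 1 day and 363, 263, 234, 181 and 234 at 3 days, with overlap at both times (-1.36 ± 0.34 at 1 day, adjusted p = 0.33). Col25a1, a membrane-bound collagen, was at 104 ± 30.3, 65.6 ± 8.6 and 99.3 ± 17.1.

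At 3 days the leading gene was Saa3, an acute phase protein that is also made by macrophages and other cells at sites of inflammation. Its intensities were 68.5, 70.4, 73, 93.4 and 191 in naïve. Contralateral Saa3 was at 422, 300.3, 63, 211 and 83.5 at 1 day and 2107, 2270.3, 355, 362 and 541 at 3 days. All 3 days samples exceeded all naïve samples, but samples 1 and 2 of that group were several times higher than the other 3, and at 1 day samples 3 and 5 were not above the naïve range. The log2 difference was 3.14 ± 0.55 at 3 days (8.81-fold, adjusted p = 0.11) and 0.90 ± 0.55 at 1 day (adjusted p = 0.8), and the difference between both times was 2.24 ± 0.55 (adjusted p = 0.26). Without 3 days samples 1 and 2 the difference from naïve at 3 days was 2.17 (adjusted p = 0.375), and it passed without 3 days sample 4, at an adjusted p of 0.0408. Saa3 met the 3 criteria of the study at 3 days with the pooled-variance form of the methods' t-test but not with separate variances, and no other probe set met them at that time. No higher probe set met them when any 1 naïve sample, 3 days sample 1 or 3 days sample 2 was left out. The crushed ONHs had Saa3 at 3399 ± 2189.9 at 1 day and 2229.7 ± 1366 at 3 days.

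The other genes with the highest moderated t at 3 days included immune receptors and a ribosome factor. Il12rb1, a chain of the receptors for interleukins 12 and 23, was at 56.7, 71.2, 61.7, 63.1 and 78.8 in naïve. Contralateral Il12rb1 was at 92, 88.5, 144, 94 and 106 at 1 day and 264, 179.9, 78.2, 103 and 98.6 at 3 days, again highest in 3 days samples 1 and 2 (0.98 ± 0.24, adjusted p = 0.4). Ly9, a leukocyte surface receptor of the SLAM family, was at 66.9, 95.4, 109, 58 and 77.7 in naïve. Contralateral Ly9 was at 109.9, 137, 140, 116 and 123 at 1 day and 177, 172, 99.8, 125 and 163 at 3 days, and 9 of the 10 early samples were above all naïve samples (0.76 ± 0.17 for both times, adjusted p = 0.38). Nle1, a factor of ribosome assembly, was at 98.5 ± 47, 121 ± 22.8 and 191 ± 35.2 (1.04 ± 0.23 at 3 days, adjusted p = 0.33), and passed without naïve sample 4 (adjusted p = 0.0305). Ropn1l, known from sperm flagella and cilia, was at 65.3 ± 6.1, 75.9 ± 18.7 and 106 ± 15.8. Among leukocyte markers, those of microglia and macrophages had a mean log2 intensity of 10.18 to 10.58 in naïve, 10.44 to 10.70 at 1 day and 10.38 to 10.65 at 3 days. Of 11 measured neutrophil markers 6 had means under 50 (Ngp, Ltf, Mmp8, Cxcr2, Elane and Mpo), and the mean log2 intensity of the list was 5.62 to 6.16 in naïve, 5.77 to 6.40 at 1 day and 5.52 to 5.90 at 3 days. The T and NK cell list was at 5.89 to 6.43, 5.69 to 6.27 and 5.63 to 6.09, with Cd3g and Cd4 under 50, and the B cell list at 5.58 to 6.12, 5.68 to 6.05 and 5.71 to 6.06, with Cd79a, Cd79b, Ms4a1 and Pax5 under 50.

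Among the genes with the lowest moderated t at 3 days was Lrriq4, a leucine-rich repeat gene. It was at 118, 88.4, 102, 124 and 126 in naïve. Contralateral Lrriq4 was at 98.9, 97.3, 95, 71.7 and 91 at 1 day and 105, 33.9, 23.5, 43.2 and 32.1 at 3 days, where sample 1 stayed in the naïve range (-1.43 ± 0.31, adjusted p = 0.3), and it passed without 3 days sample 1 (adjusted p = 0.0117). Without that sample 6 probe sets passed at 3 days, and 4 did so between 3 days and 1 day. Pde6h, the inhibitory subunit of the cone phosphodiesterase, was at 1512 ± 283 in naïve and 803 ± 492 at 3 days (-1.17 ± 0.32, adjusted p = 0.54). Its difference was -1.43 to -0.88 under 21 alternatives, among them the photoreceptor level as a covariate, and it passed in none. The sulfotransferase Sult5a1 (-0.68 ± 0.19), the G protein subunit Gna14 (-0.59 ± 0.17) and the stress-inducible Gadd45b (-0.62 ± 0.18) completed the 5 genes with the lowest t. Of MHC class II, which presents antigen to helper T cells, H2-Aa was at 2499, 1714, 2444, 2419 and 2429 in naïve and 943, 2081, 1785, 1534 and 1727 at 3 days (-0.55 ± 0.20, unadjusted p = 0.013), and H2-Eb1 (-0.61 ± 0.22) and H2-Ab1 (-0.34 ± 0.17) were lower with it, while the class I gene H2-D1 was higher (0.24 ± 0.10), each with an unadjusted p under 0.05 and none past the adjustment. Of the 20 complement and MHC genes 5 were higher and 3 lower at 3 days by that unadjusted threshold, beside 4.16% and 1.57% of all genes. The class II pathway genes Cd74 and Ciita were not among the 3 lower ones, and Ciita was dim.

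Interferon-stimulated genes varied widely between pools of one group. The mean log2 intensity of 19 of them was 9.72, 9.63, 10.10, 9.32 and 10.02 in the naïve samples, 10.55, 10.07, 11.24, 9.64 and 9.80 at 1 day and 11.29, 11.14, 9.58, 10.29 and 9.56 at 3 days. Samples 1 and 3 at 1 day and samples 1, 2 and 4 at 3 days were above all naïve samples, and the other 5 early samples lay in the naïve range. The crushed ONHs had 10.16, 11.97, 11.28, 10.07 and 10.76 at 1 day and 10.43, 10.47, 11.08, 10.93 and 10.00 at 3 days. Of the 19 genes 3 were higher in both times together at an unadjusted p under 0.05, and 0 lower, beside 5.75% and 1.86% of all genes, with a list median of 0.47 against 0.03. The count was 7 without 3 days sample 3 or 5, 6 without 1 day sample 4, 5 without naïve sample 3 or 1 day sample 5, and 1 without naïve sample 2 or 4, 1 day sample 1 or 3, 3 days sample 1 or 2, or both of the last. Mx2, an antiviral GTPase, was at 13.4, 12.6, 34.9, 7.63 and 15 in naïve. Contralateral Mx2 was at 57.4, 18.2, 176, 31.6 and 40.7 at 1 day and 195, 129, 49.7, 64.5 and 62.7 at 3 days, so that 4 of the 5 naïve values were under the floor of 20 and the difference of 1.54 ± 0.44 is understated (adjusted p = 0.5). As no naïve value reached 50, Mx2 entered the test through contralateral arrays alone, and its place among the 3 is no support for the list. Oasl1, of the oligoadenylate synthetase family, was at 61.8, 64.1, 78.5, 47.4 and 60.5 in naïve. Contralateral Oasl1 was at 213, 96.5, 704, 76.8 and 73.9 at 1 day and 250, 319.8, 80, 85.5 and 69 at 3 days (1.19 ± 0.56, adjusted p = 0.7). Stat2, which carries the interferon signal to the nucleus, was at 183, 155, 229.9, 129 and 107 in naïve. Contralateral Stat2 was at 284, 226, 456, 154 and 176 at 1 day and 380, 365, 157, 179 and 136 at 3 days (0.57 ± 0.26, adjusted p = 0.7). In each of these 3 genes the highest 1 day value was that of sample 3 and the highest 3 days values were those of samples 1 and 2. The microglia and macrophage list was at 10.52, 10.65, 10.38, 10.48 and 10.50 in the 5 samples at 3 days.

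The core of the interferon-stimulated response element, to which interferon-activated factors are known to bind, occurred in 9 of the 14 interferon-stimulated genes with a promoter entry and in 3.44% of all promoters, counting both strands. The 9 are genes with the motif in any of their listed promoters, whereas the share counts single promoters. The motif is shown in capitals for Stat2, where it lies on the minus strand and reads in reverse complement, and for Saa3, which is not in the interferon list. Samples 1 and 2 at 3 days were high in both genes. The 1 day sample 3 was highest of its group in the interferon list and had the lowest Saa3 value of the early samples. A link between the motif and the values of Saa3 was not tested.
Stat2, chr10:128270248-128270315, plus strand: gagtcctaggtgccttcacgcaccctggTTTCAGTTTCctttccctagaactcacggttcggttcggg
Saa3, chr7:46715762-46715831, minus strand: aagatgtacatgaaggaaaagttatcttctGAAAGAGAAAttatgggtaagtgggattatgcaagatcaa

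**Figure D3:**
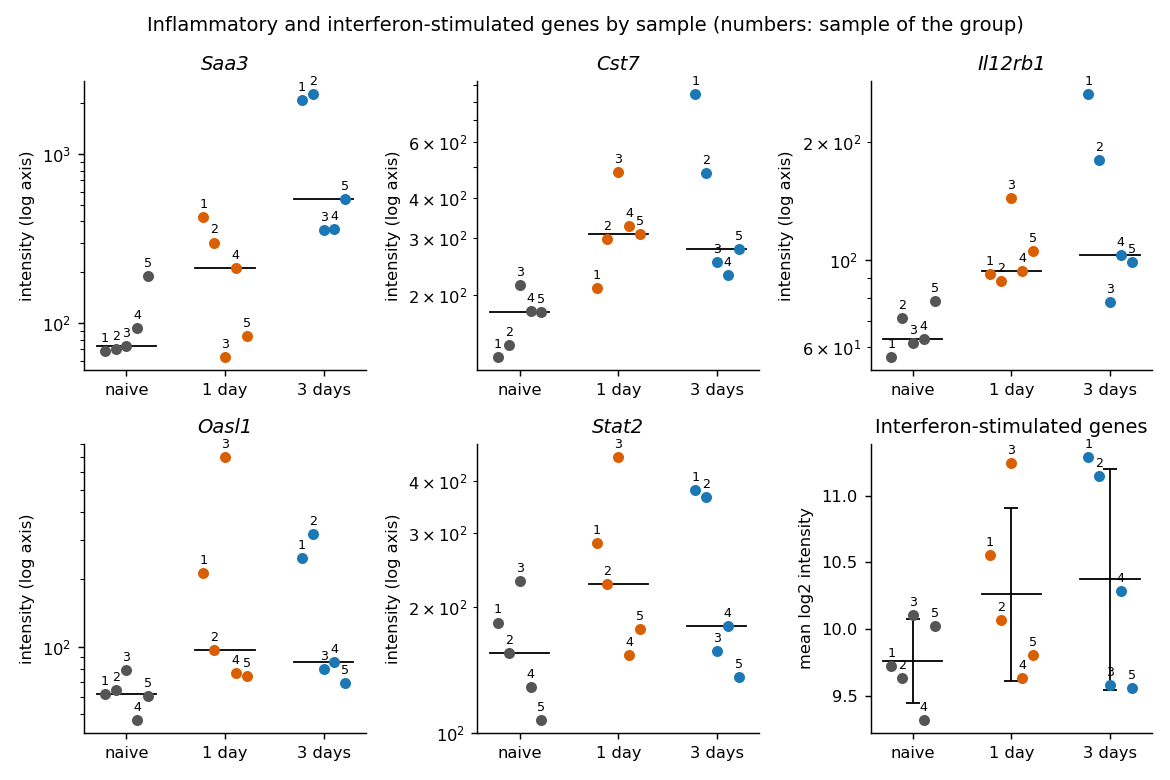
Intensity of Saa3, Cst7, Il12rb1, Oasl1 and Stat2 (log axes, bars at the median) and the mean log2 intensity of 19 interferon-stimulated genes (mean and SD) in each naïve, 1 day and 3 days sample, numbered within its group. Samples 1 and 2 at 3 days hold the 2 highest values of Saa3 and Il12rb1, and with sample 3 at 1 day the 3 highest of Cst7, Oasl1, Stat2 and the list.

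For both times combined, the genes with the highest moderated t included genes known from myeloid cells and astrocytes, and none passed the adjustment. Gpr84, a fatty acid receptor of myeloid cells, was at 99.7, 114, 75.4, 48.7 and 76.9 in naïve and 106 to 222 with a median of 158 over the 10 early samples, of which 9 were above all naïve samples (0.93 ± 0.20, adjusted p = 0.34). Cst7, a protease inhibitor of immune cells, was at 128, 139, 214, 178 and 177 in naïve. Contralateral Cst7 was at 210.5, 299, 485, 328 and 310 at 1 day and 845, 480.4, 253, 231 and 278 at 3 days (1.05 ± 0.26, adjusted p = 0.5). Its highest value was in 3 days sample 1, and without 3 days samples 1 and 2 the difference was 0.78. Agt, angiotensinogen, a product of astrocytes, was at 1696, 1609, 1859, 2108 and 1212 in naïve and 2069 to 3564 with a median of 2749 in early samples (0.72 ± 0.18, adjusted p = 0.5), and was at 397 ± 239 in the crushed ONHs at 1 day. Lcn2, a secreted lipocalin of reactive astrocytes and neutrophils, was at 238, 215, 195, 355 and 294 in naïve. Contralateral Lcn2 was at 496, 1582, 388, 794 and 413 at 1 day and 645, 707, 393, 368 and 397 at 3 days, with all 10 early samples above all naïve samples (1.12 ± 0.32, 2.18-fold, adjusted p = 0.5), and at 7794 ± 1159.9 in the crushed ONHs at 1 day. The remaining genes named by their t were Ifi204, an interferon-inducible sensor (0.87 ± 0.24), Rtkn2, a rhotekin (0.66 ± 0.18), Galnt6, a glycosyltransferase (0.75 ± 0.20), and the protocadherin Pcdhb10 (0.85 ± 0.22), each with an adjusted p of 0.5.

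Several markers of glia had slightly higher values in early contralateral ONHs. Of 18 microglia and macrophage markers 8 were higher and 0 lower (p under 0.05 before adjustment), with a median of 0.17. For this and the following lists, the shares of all genes were 5.75% higher and 1.86% lower, with a median of 0.03. C1qa, of the complement component by which microglia tag synapses, was at 3424, 3606, 3928, 3262 and 3621 in naïve and 3765 to 4446 with a median of 4179.6 in early samples (0.22 ± 0.06, unadjusted p = 0.0015, adjusted p = 0.5). The others were C1qb, Ctss, Trem2, Aif1, Cx3cr1, Tyrobp and Laptm5, all under 1.5-fold, and the count was 5 without 1 day sample 3 and 4 without 3 days samples 1 and 2. Of 10 oligodendrocyte markers 6 were higher and 0 lower, with a median of 0.14. Mog, a myelin surface protein, was at 5660.4, 5947, 6043, 5286 and 6157 in naïve and 6098 to 7975 with a median of 7088 in early samples (0.25 ± 0.07, adjusted p = 0.5), while Fa2h, a fatty acid hydroxylase of oligodendrocytes, was at 2481 ± 362 in naïve, 3507 ± 649 at 1 day and 3574 ± 642 at 3 days (0.51 ± 0.16). Of 5 markers of oligodendrocyte precursors 2 were higher, Olig2 (0.48 ± 0.18) and Sox10, while Pdgfra, Cspg4 and Olig1 did not pass. Of 16 astrocyte markers 3 were higher: Ntsr2 (0.54 ± 0.14), a neurotensin receptor of astrocytes, Aldh1l1 (0.35 ± 0.16) and Aqp4 (0.10 ± 0.05). None of 14 markers of axons and ganglion cells was higher or lower at that threshold, and their median was -0.0048. In the crushed ONHs at 1 day Ntsr2 was at 64.9 to 153 and Fa2h at 218 to 1281.

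Genes of the unfolded protein response and of cholesterol synthesis leaned the same way. Of 20 heat shock and unfolded protein response genes 8 were higher and 0 lower, with a median of 0.14, beside 5.75% and 1.86% of all genes and their median of 0.03. The count was 5 with quantile normalization and 4 without naïve sample 5, and the median was 0.06 to 0.17 under the alternatives. Sdf2l1, a cofactor of the endoplasmic reticulum chaperone BiP, was at 1261, 1454, 1204, 1233 and 1438 in naïve. Contralateral Sdf2l1 was at 1905, 1833, 1964, 1802 and 1731 at 1 day and 2235, 2072, 1539, 1651 and 1367 at 3 days, with 9 of 10 early samples above all naïve ones (0.45 ± 0.10, adjusted p = 0.34). Hsph1, a cytosolic chaperone, was at 5142 to 6555 in naïve and 6733 to 7269.9 with a median of 7119 in early samples, without overlap (0.22 ± 0.05, adjusted p = 0.5), and Manf, a secreted stress protein of the endoplasmic reticulum, differed by 0.20 ± 0.06. By time, 8 members were higher at 1 day and 2 at 3 days, beside 5.5% and 4.16% of all genes. Between 3 days and 1 day 1 member was higher and 1 lower, so a change between both times was not shown for this list. Of 14 genes of cholesterol synthesis 8 were higher and 0 lower, with a median of 0.16 against the same shares of all genes, but the count ranged from 3 (with quantile normalization or without naïve sample 4, 1 day sample 1 or 3, or 3 days samples 1 and 2) to 10 (without 1 day sample 4). Cyp51, lanosterol demethylase, was at 2438, 2646, 2484, 2533 and 3100.1 in naïve and 2626 to 3835 with a median of 3147 in early samples (0.25 ± 0.08, adjusted p = 0.55). Of 20 complement and MHC genes 6 were higher and 0 lower, 2 of them shared with the microglia list. Of 24 glucocorticoid-induced genes 3 were higher (Plin4, Zbtb16 and Nfkbia) and 0 lower, with a median of 0.07, and Zbtb16, a zinc finger factor induced by glucocorticoids, was at 754, 838, 858, 668 and 974 in naïve. Contralateral Zbtb16 was at 752, 835, 1003, 1429 and 1713 at 1 day and 897, 872, 1895, 1963 and 1897 at 3 days (0.61 ± 0.23, adjusted p = 0.65). Of 27 immediate early and stress genes 0 were higher and 4 lower, among them Nr4a1 (-0.62 ± 0.25) and Jun (-0.17 ± 0.08), which are switched on within minutes of a stimulus.

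The remaining lists held few members at this threshold, beside the same 5.75% higher and 1.86% lower of all genes. Of 18 acute phase and endothelial inflammation genes 3 were higher (Saa3, Lcn2 and Serpina3n) and 0 lower, and of 20 chemokines and acute cytokines 1 was higher. Of 21 reactive astrocyte genes 2 were higher and 1 lower, of 34 matrix genes 0 and 2, and of 15 hypoxia and glycolysis genes 0 and 1. Of 14 genes of lipid droplets and fatty acid use 1 was higher (Plin4), and of 12 synaptic and activity-dependent genes 1. None of 11 endothelial, 10 pericyte and smooth muscle, 12 photoreceptor, 8 other retinal, 2 Schwann cell, 5 skeletal muscle or 6 lens and cornea markers passed in either direction. Of 4 erythrocyte genes 2 were lower (Hbb-b2 and Alas2), of 5 neutrophil markers 1 was higher and 1 lower, of 8 T and NK cell markers 1 was lower, and of 4 B cell markers 2 were higher.

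**Figure D4:**
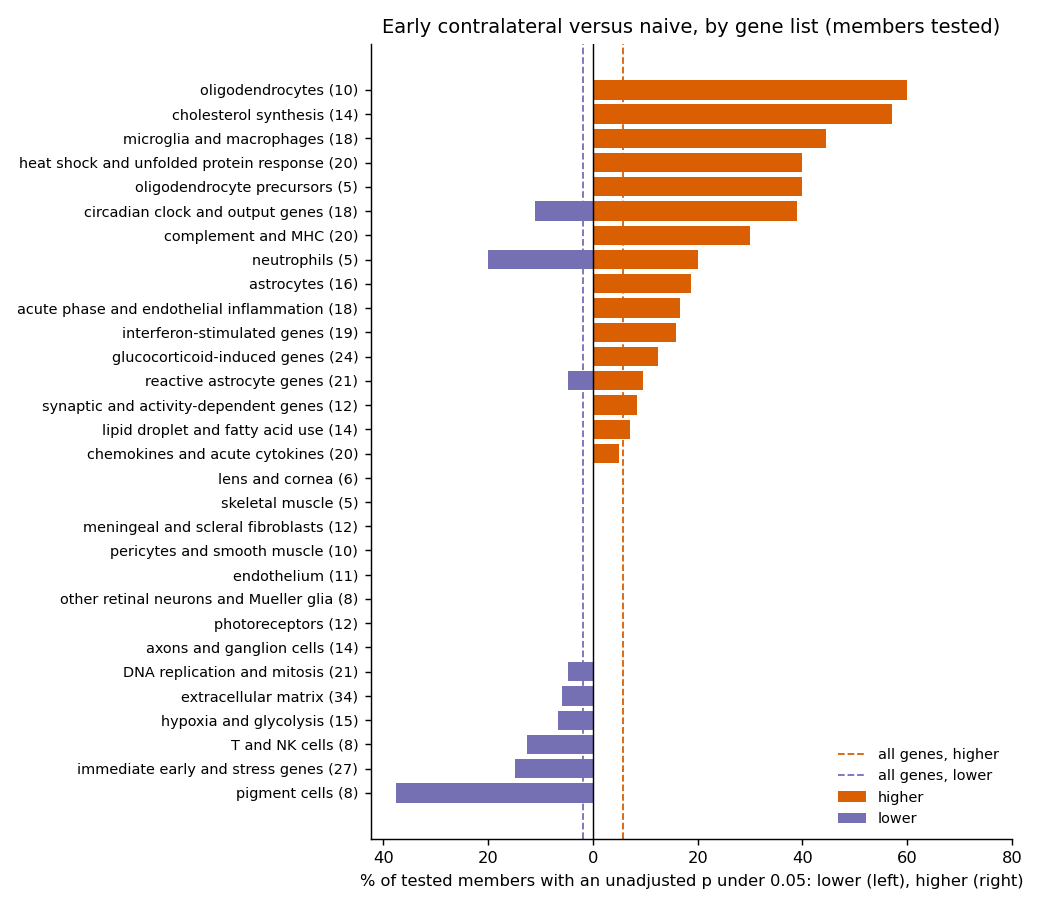
Share of the tested members of each gene list (number in parentheses, lists of 5 or more) that were higher (orange, right) or lower (violet, left) in early contralateral than in naïve ONHs at an unadjusted p under 0.05, with dashed lines at the share of all genes, 5.75% and 1.86%. Oligodendrocytes, cholesterol synthesis and microglia have the longest bars to the right, and pigment cells the longest to the left.

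The genes with the lowest t over both times included several that varied among the contralateral pools together with pigment cell genes. Of 8 pigment cell genes, known from the choroid and the retinal pigment epithelium beside the ONH, 3 were lower and 0 higher (0 lower without naïve sample 3, and 6 without 1 day sample 5 or 3 days sample 5). Their mean log2 intensity was 10.15, 9.83, 10.34, 9.54 and 9.76 in naïve, 9.05, 7.45, 6.34, 9.62 and 10.60 at 1 day and 7.92, 9.76, 9.56, 7.20 and 10.12 at 3 days, so that the 5 naïve samples lay close together and the early samples reached from the naïve level down to a much lower one. Tyrp1, an enzyme of melanin synthesis, was at 4702, 4151, 5399, 3273 and 3983 in naïve. Contralateral Tyrp1 was at 1727, 550.1, 162, 2668 and 5556 at 1 day and 1223, 3647, 2824, 411 and 4655 at 3 days (-1.51 ± 0.63, adjusted p = 0.68). Tnmd, tenomodulin of tendons and other dense connective tissue, was at 706, 489, 1108, 747 and 355 in naïve. Contralateral Tnmd was at 39.3, 13, 3.37, 126 and 950.2 at 1 day and 24.5, 299.6, 38.9, 25.4 and 474 at 3 days (-3.06 ± 1.01, adjusted p = 0.56), where 1 day sample 5, which had the highest pigment level, was also the highest. Krtdap, known from keratinocytes, was at 873 to 1267 in naïve and 93.5 to 1429 with a median of 432 in early samples, Mmp3, a matrix metallopeptidase, at 108 to 596 and 25.8 to 182 with a median of 76.5, and Thbs1, thrombospondin, at 432 to 1159.7 and 162 to 1211 with a median of 325. For Ecrg4 the 1 day samples 2 and 3, lowest in pigment genes, were the lowest as well. The part of carried-over pigmented or connective tissue in these differences was not tested. The list of 12 fibroblast markers had 0 higher and 0 lower, at 12.08 to 12.53 in naïve, 12.07 to 12.39 at 1 day and 12.20 to 12.31 at 3 days. Skeletal muscle markers were near the floor but for 1 day sample 1 (list level 7.29, 5.41, 5.48, 5.23 and 5.45), and 8 of 12 had means under 50. Of the others with the lowest t, Dlk1, a Notch-related ligand, differed by -0.80 ± 0.24, the proprotein convertase Pcsk5 by -0.59 ± 0.20, Ankrd27, a regulator of vesicle transport, by -0.65 ± 0.21, Sptssb, a subunit of serine palmitoyltransferase, by -0.74 ± 0.26, and Airn, a noncoding transcript of the imprinted Igf2r locus, by -0.65 ± 0.23.

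**Figure D5:**
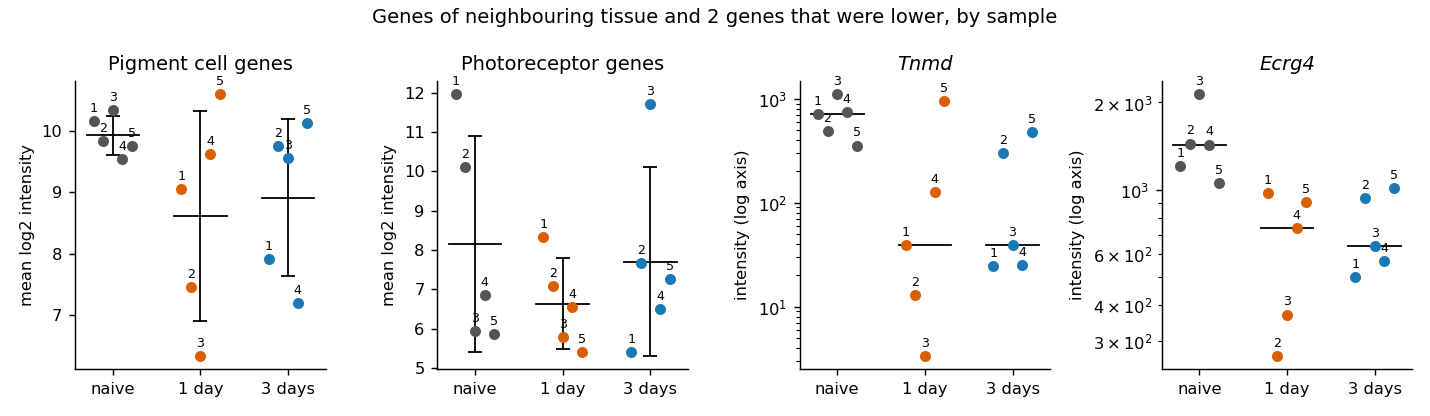
Mean log2 intensity of 8 pigment cell genes and of 13 photoreceptor genes (mean and SD in black), and intensity of Tnmd and Ecrg4 (log axes, bars at the median), in each naïve, 1 day and 3 days sample, numbered within its group. Pigment levels of the naïve samples lie within 9.54 to 10.34 and those of the early samples between 6.34 and 10.60, while photoreceptor levels spread widely in every group.

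Against later contralateral ONHs, in a comparison of 10 with 10 samples, many more probe sets passed than against naïve ONHs, and the differences were mostly small. The later mice were also older at collection by the added time, so that age and time after the crush cannot be told apart. Against the mean of 1 week and 3 weeks, 3081 of 18669 probe sets passed (16.5%), 1750 higher and 1331 lower in the early samples, and 32 of them by at least 2-fold. The count was 1744 without 3 days samples 1 and 2, and 2374 to 3729 when any single sample of the comparison was left out. Among the 10440 genes 9.59% were higher and 6.31% lower by this test. Of 34 extracellular matrix genes 11 were higher and 0 lower, among them the basement membrane collagens Col4a1 (0.42 ± 0.15) and Col4a2 (0.67 ± 0.18), and the laminin chain Lamc1 (0.28 ± 0.06). Of 20 heat shock and unfolded protein response genes 9 were higher and 0 lower, with Pdia4, a protein disulfide isomerase, at 1782 ± 250.4 at 1 day, 1668 ± 81.6 at 3 days, 921 ± 453 in the 1 week group and 1064 ± 208 in the 3 weeks group. Of 21 reactive astrocyte genes 9 were higher and 1 lower, and of 27 immediate early and stress genes 7 and 0. Nes, the intermediate filament nestin, was at 2728 ± 126 at 1 day, 2631 ± 217 at 3 days, 2028 ± 815 in the 1 week group and 1306 ± 154 in the 3 weeks group. Of 20 chemokines and acute cytokines 1 was higher and 2 were lower. The chemokine Ccl2 was lower in early samples, with 251 ± 171 for 1 day and 198 ± 46.6 for 3 days beside 636 ± 789 for 1 week and 885 ± 464 for 3 weeks (-1.31 ± 0.42, adjusted p = 0.034), with 205 ± 51.6 in naïve. Of the genes that rose at 1 day, Bhlhe40 was higher early than later (0.16 ± 0.05, adjusted p = 0.022) and Tef (-0.07 ± 0.04) and Rasl11b (-0.06 ± 0.09) did not pass. The genes named in this paragraph were chosen after their values were seen.

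By the 3 criteria of the study, which ask for a lower 90% bound of the fold above 2, a difference of means above 100 and the methods' t-test, 0 probe sets differed for both times together, 1 at 1 day and 1 at 3 days, without a correction for multiple tests. The bound for Plin4 at 1 day was 2.34 with means of 64.7 and 201. That for Saa3 at 3 days was 4.001 with means of 99.2 and 1127. These counts took the pooled-variance form. The study itself lists 1 probe set at 1 day and 0 at 3 days, so the Saa3 hit departs from its count. With separate variances the counts here were 1 at 1 day and 0 at 3 days, equal to those the study lists. For both times together, which the study does not list, separate variances gave 1. The methods' t-test alone passed 2097 probe sets for both times, 1731 at 1 day and 1615 at 3 days, and after Benjamini-Hochberg adjustment 0 in each.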

How the data were processed

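RNA of 55 pools of 2 optic nerve heads was amplified and hybridised to Affymetrix mouse 430A 2.0 arrays. The authors normalized the arrays in DChip (invariant set, perfect match minus mismatch model) and deposited linear intensities, whose normalization cannot be undone here. The number of arrays limits the precision. Of 22690 rows 64 control probe sets were left out, and of 22626 probe sets 20380 had 1 gene symbol, 691 several and 1555 none in the platform annotation. Values below 20 were set to 20 before log2, which understates differences of dim genes, and probe sets reaching 50 on at least 5 arrays were tested. Groups came from the sample titles. limma 3.58.1 (R 4.3.3) was fitted with an intensity trend to the 25 arrays of uninjured ONHs up to 3 weeks, hybridised as one batch, with 5 group terms, and p-values were Benjamini-Hochberg adjusted over all 18669 probe sets (threshold 0.05). A gene was represented by its brightest single-symbol probe set. Genes were named if they were among the 12 highest or lowest moderated t of both times or the 5 of each time, with a group mean of at least 100 and a 1.5-fold difference, or met the criteria of the study, or were among the 3 largest absolute t of a list, and other members of the lists were picked with their values known. The members and lists were chosen with earlier results of these data known. The study's criteria used linear intensities, with a bound quantile of 1.64, and the form of the t-test is not given in the sources used here. Gapdh, planned as a reference gene, had no single-symbol probe set and was not analysed here. Replicate numbers did not pair samples: deviations from the group means of 15 same-numbered pairs correlated between -0.519 and 0.442, and 5 exceeded 0.1. Scripts were tested on simulated data, and alternatives changed scaling, floor, filter, prior variance, samples, block and covariate.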

Additional observations from a re-analysis of the deposited data

Results flagged for a closer look

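In 102 groups of 5 samples examined, 4 held a sample that stood apart from the others by Dixon's criterion, and chance gives about 1 group in 20. Arntl in 1 day sample 5 was at 685.53, where the other 4 lay between 801.74 and 851.38. Rasl11b in 1 day sample 4 was at 2797.75, where the others lay between 3594.3 and 3725.75. Lrriq4 in 1 day sample 4 was at 71.72, where the others lay between 90.99 and 98.89. Mx2 in naïve sample 3 was at 34.92, where the others lay between 7.63 and 14.97 and so under the floor of 20. The floor made those others equal before the criterion was applied, so any single value above 20 would have been flagged, and this flag carries no weight. Early and later contralateral samples differed in 3081 probe sets by the test of the difference itself (limma, adjusted p under 0.05).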

How the results depend on the processing

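Of 93 results for single genes, 0 reversed under any alternative run, Tef and Rasl11b were the 2 that lost their adjusted p under 0.05, and 9 gained it in at least 1 alternative. For both times against naïve the count of 0 became 1 without the filter on dim probe sets and 1 without the first and second 3 days samples (an alternative chosen after seeing the data), and 0 to 1 with 1 sample left out. At 1 day the count of 3 became 1 with quantile normalization, 1 without an intensity trend, 5 with only the 15 arrays, and 1 to 8 with 1 sample left out. At 3 days the count of 0 became 13 without the filter, 4 without the first and second samples, and 0 to 6 with 1 sample left out. Between 3 days and 1 day it became 2 without the filter and 0 to 4 with 1 sample left out. Between early and later samples the count of 3081 became 1744 without the first and second 3 days samples, and 2374 to 3729 with 1 sample left out. Counted with at least a 2-fold difference, 0 at 1 day became 2 with only the 15 arrays, 1 with the replicate block and 0 to 2 with 1 sample left out, 0 at 3 days became 6 without the filter, 4 without the first and second samples and 0 to 6 with 1 left out, 0 between both times became 0 to 4, and 0 for both times together stayed 0 to 0. The 32 between early and later became 20 with a floor of 50, 17 with a minimum of 200, and 25 to 66 with 1 sample left out. By the criteria of the study, 0 for both times became 1 with separate variances in the t-test (also added after seeing the data), 2097 with the methods' t-test alone and 0 to 1 with 1 sample left out, 1 at 1 day became 1731 with the t-test alone, 0 after Benjamini-Hochberg and 1 to 9, and 1 at 3 days became 2 with a looser bound, 0 with separate variances, 1615 with the t-test alone, 0 after Benjamini-Hochberg and 0 to 3. With the replicate number as a block, 0 probe sets passed for both times, 2 at 1 day (Tef had an adjusted p of 0.0649 and Rasl11b of 0.0716), 0 at 3 days, 0 between both times and 3073 between early and later, and in 4 of 15 comparisons a sample correlated best with its own number. The cause of these shifts was not tested.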
